A study of Mus musculus with 12 samples.

Results

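Histidine is broken down or turned into histamine by 2 enzymatic routes, which were followed here through 6 genes. They were chosen as the genes of histidine breakdown (Hal, Uroc1, Amdhd1 and Ftcd) and of histamine synthesis and inactivation (Hdc and Hnmt), named through the transcript accession of each array probe, and they were read by 10 of 56605 probes and are 6 of the 24232 genes that could be named. Hal was selected on its normalised intensities on these same arrays, which differed strongly between the groups. Its values are therefore given as a description without a test, and the other 5 genes are there for their place in the pathway. The data are 12 single-colour Agilent mouse arrays, on which the brightness of a probe measures the amount of its transcript, with 3 arrays in each of 4 groups. All arrays carried RNA of dendritic cells (DCs) grown from bone marrow of female C57BL/6 mice with GM-CSF (2 ng/ml) and IL-4 (4 ng/ml), taken as the loosely adherent cells on day 7 and then stimulated for 24 h with LPS (1 µg/ml), lipopolysaccharide of bacterial outer membranes, a stimulus that matures DCs. The groups were DC Young from untreated mice of 2 months, DC Dysbiotic (labelled Young-Abx) from mice of 2 months given an antibiotic cocktail, DC Old from untreated mice of 24 months, and DC Old-LP from mice of 24 months given Lactobacillus plantarum. Each array is described as a pool of 3 mice, so the spread between arrays is not that between single animals, and the groups differ in the age or treatment of the mice and not in the culture.

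In the breakdown route, histidine ammonia-lyase (Hal) removes the amino group of histidine to give urocanate, urocanate hydratase (Uroc1) and imidazolonepropionase (Amdhd1) open the ring, and formimidoyltransferase cyclodeaminase (Ftcd) hands a carbon unit to folate. The route is best known from liver, and Hal also from the epidermis, where urocanate builds up. In the other route, histidine decarboxylase (Hdc) makes histamine, and histamine N-methyltransferase (Hnmt) inactivates it inside cells. Mast cells and basophils are the classical histamine stores, while myeloid cells also express Hdc.

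The arrays lay on 3 slides. On slide 1 were the A and B arrays of all groups, on slide 2 the C arrays from young mice, and on slide 3 the C arrays from old mice. The C arrays were dimmer, with 37.3 to 46% of spots well above background against 61.2 to 66.4% on the A and B arrays, so values are given by replicate letter throughout. All 12 dendritic cell markers of a fixed list, among them Itgax, H2-Ab1, Cd74 and Ccr7, exceeded background in every array of 1 group or more. Of these, 10 did so on all 12 arrays. Detection does not set these markers apart from those of other cells. On all 12 arrays, 9 of 10 macrophage markers and 8 of 10 neutrophil and granulocyte precursor markers were also well above background. A probe passed the threshold, or was called, if its p after Benjamini-Hochberg adjustment over all probes did not exceed 0.05 and its log2 fold change was 0.5 or more in size. None of the 12 dendritic cell markers passed between groups in the fit to all arrays without a block. With the replicate letter as a block, 2 were lower and 1 was higher in DC Old compared to DC Young (2.18% of all probes were called), and 1 was higher in DC Old-LP than in DC Old (1.65%). On slide 1 alone, 4 were lower and 1 was higher in DC Old compared to DC Young (9.17%). Values below are quantile-normalised log2 intensities unless stated otherwise, so a step of 1 is a doubling. The level of one gene was not set against that of another, since probes differ in brightness.

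The genes of Hal and Amdhd1, the first and the third enzyme of the breakdown route, lie next to each other on chromosome 10, and the first was well above background on all 12 arrays and the second on 8. The windows around their start sites are shown because Hal differed between the groups while no probe of its neighbour Amdhd1 passed in the fit to 12 arrays without a block (RefSeq, GRCm38.p6, from 250 bases before to 50 after the start, 5′ to 3′ on the strand of the gene). Capitals mark a match to TATAAA (the TATA box), to CCAAT (the CCAAT box) or to GGGCGG (the GC box) on either strand.
Hal, chr10:93488518-93488817, plus strand: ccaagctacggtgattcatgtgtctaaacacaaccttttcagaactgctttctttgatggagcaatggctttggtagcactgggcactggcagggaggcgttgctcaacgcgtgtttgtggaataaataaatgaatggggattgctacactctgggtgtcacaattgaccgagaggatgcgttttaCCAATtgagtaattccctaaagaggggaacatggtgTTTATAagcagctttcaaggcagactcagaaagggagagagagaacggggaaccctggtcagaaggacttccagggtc
Amdhd1, chr10:93539984-93540283, minus strand: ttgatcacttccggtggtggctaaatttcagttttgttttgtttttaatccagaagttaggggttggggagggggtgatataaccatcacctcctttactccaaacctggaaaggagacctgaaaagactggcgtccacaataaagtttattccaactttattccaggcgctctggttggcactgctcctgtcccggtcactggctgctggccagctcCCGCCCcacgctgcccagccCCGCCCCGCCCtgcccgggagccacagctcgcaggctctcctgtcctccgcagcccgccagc
The Hal window held TTTATA, the TATA box on the other strand, 28 bases before the start and CCAAT 64 bases before it. The Amdhd1 window held CCGCCC, the GC box on the other strand, 3 times, at 32, 12 and 7 bases before the start, and the last 2 matches share a base. Hal had 7 CG pairs and a GC content of 47.7%, and Amdhd1 had 12 and 57.0%. Of 32851 such windows in the reference, 13.6% held TATAAA, 37.4% CCAAT and 35.7% GGGCGG, so these letters are common and their presence is a description only. Among the other members, Ftcd held TATAAA, Uroc1 and Hnmt held CCAAT, and Hdc held GGGCGG.

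Hal was read by 1 probe, which was well above background on all 12 arrays. In DC Young it was at 6.39, 6.26 and 7.01 on the A, B and C arrays. In DC Dysbiotic it was at 12.11, 12.09 and 11.64, and in DC Old at 12.34, 12.33 and 12.35. The level was intermediate in cells of old mice given L. plantarum, where DC Old-LP read 8.72, 8.63 and 9.83. In these values, for which Hal was selected, no array of any group overlapped with an array of another group. How many of all probes separate in this way was not counted. Before normalisation the intensities on slide 1 were 143 and 149 in DC Young, 6820 and 9840 in DC Dysbiotic, 8860 and 6860 in DC Old, with 727 and 960 for DC Old-LP, and on the dim C arrays they were 44.8, 1680, 1000 and 235 in the same order. The order of the groups was thus visible in the scanner values on slide 1, where the arrays had similar brightness, except between DC Dysbiotic and DC Old, whose intensities crossed.

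**Figure D1:**
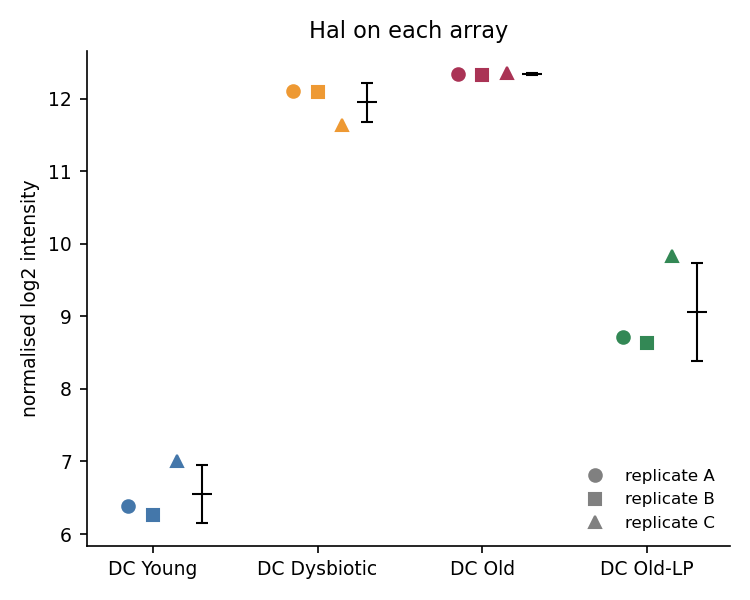
Normalised log2 intensity of Hal (y axis) on each array by group (x axis), with circles, squares and triangles for replicates A, B and C and black bars for the group mean ± SD (n = 3). DC Young lies between 6.26 and 7.01, DC Old-LP between 8.63 and 9.83, and DC Dysbiotic and DC Old lie between 11.64 and 12.35.

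The mean of Hal was lowest in DC Young, at 6.55 ± 0.40 (SD, n = 3), followed by 9.06 ± 0.67 in DC Old-LP, 11.95 ± 0.27 in DC Dysbiotic and 12.34 ± 0.01 in DC Old. As a description of the values for which the gene was listed, DC Old was 5.79 above DC Young on the log2 scale, which is 55.3-fold, with 40.5 to 67.2-fold over the 3 letters. DC Dysbiotic was 5.39 above DC Young (41.9-fold, 24.8 to 56.9-fold over the letters). Among all probes these were the 5th and the 7th largest differences upwards of their comparisons. DC Old-LP was lower than DC Old by a log2 difference of -3.28, with -3.61, -3.70 and -2.52 for A, B and C. It was also -2.88 from DC Dysbiotic but remained 2.51 above DC Young, with 2.34, 2.37 and 2.82 for the letters. DC Old and DC Dysbiotic were neighbours in this order with a difference of 0.39 (0.22, 0.24 and 0.71 by letter), which was the smallest of the 6 comparisons, beside an SD of 0.27 in DC Dysbiotic. In bulk RNA, a larger share of cells with the transcript and more transcript per cell cannot be told apart.

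The other breakdown enzymes were at or near the background of the arrays. Uroc1, the next enzyme after Hal, was well above background on 3 of 12 arrays by its brighter probe, with a range of 1.76 to 5.02, and on none by its second probe (1.67 to 2.61). The single probe of Ftcd was well above background on no array (1.71 to 2.44), so no fold is given for it. Amdhd1 read 5.13, 4.50 and 2.83 on the A, B and C arrays of DC Young, 4.69, 5.04 and 2.37 in DC Dysbiotic, 4.98, 5.30 and 1.96 in DC Old, with 4.98, 4.95 and 2.49 for DC Old-LP. It was well above background on the 8 arrays of slide 1 and on none of the C arrays, and the 4 groups overlapped. The second Amdhd1 probe was well above background on 1 array, of DC Dysbiotic. On slide 1, where Amdhd1 could be measured, its difference between DC Old and DC Young was 0.32 (SE 0.246, limma adjusted p = 0.537) while that of Hal was 6.01.

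Hdc, which makes histamine, was well above background on all 12 arrays by its brighter probe. DC Young read 10.61, 10.61 and 10.64 and DC Old-LP read 10.63, 10.51 and 10.70, so these groups overlapped and differed by -0.01 (95% interval of DC Old-LP minus DC Young -0.80 to 0.78). DC Dysbiotic read 9.87, 9.84 and 10.27, below every array of DC Young. DC Old read 9.54 and 9.69 on slide 1 but 11.02 on its C array, which was the highest Hdc value of the study. On slide 1, Hdc was therefore lower in the groups with Hal above 12 than in the other groups, and on the C arrays DC Old broke this order.

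Over all 12 arrays Hdc passed the threshold in no comparison. Its log2 fold change was -0.53 between DC Old and DC Young (SE 0.354, adjusted p = 1), -0.63 for DC Dysbiotic versus DC Young (adjusted p = 1), and 0.53 for DC Old-LP relative to DC Old (adjusted p = 1). Within slide 1 it passed in 4 comparisons: it was lower in DC Old compared to DC Young by a log2 fold change of -0.99 (SE 0.0984, limma adjusted p = 0.00306) and lower in DC Dysbiotic than in DC Young by -0.76 (adjusted p = 0.0117). It was higher in DC Old-LP than in DC Old by 0.95 (adjusted p = 0.00396) and than in DC Dysbiotic by 0.71 (adjusted p = 0.017). These fits rest on replicates A and B, 2 arrays a group, and call 9.17, 6.14, 8.24 and 4.81% of all probes in the same 4 comparisons, so Hdc is 1 of many probes called there. On the C arrays alone the difference of DC Old from DC Young was 0.38 and that of DC Old-LP from DC Old was -0.32. Both are opposite to slide 1, whereas DC Dysbiotic remained below DC Young by -0.37. The first compares an array of slide 3 with one of slide 2, so age and slide cannot be told apart in it. Without replicate C of DC Old, the 12-array value of -0.53 became -1 (adjusted p = 0.0713). The second, dimmer Hdc probe was well above background on slide 1 only. It read 5.64, 5.87 and 5.77 in DC Old-LP and 4.57, 4.85 and 4.55 in DC Old, a difference of 1.11 with groups that did not overlap (adjusted p = 0.339), but it did not separate DC Old from DC Young (-0.46, adjusted p = 1).

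**Figure D2:**
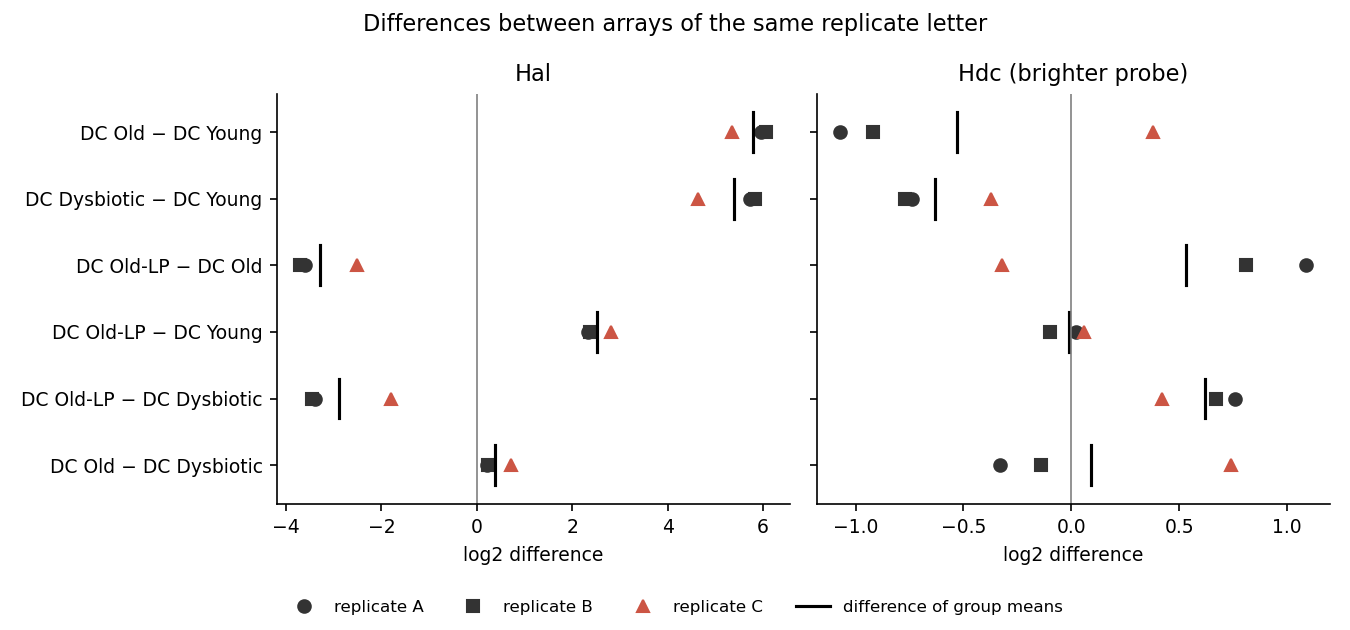
Log2 differences (x axis, a separate scale for each gene) between arrays of the same replicate letter for 6 comparisons (y axis), for Hal on the left and the brighter Hdc probe on the right, with black bars for differences of group means. All letters of Hal lie on 1 side of 0 in each comparison. The C array of Hdc lies opposite to A and B for DC Old versus DC Young (0.38), DC Old-LP versus DC Old (-0.32) and DC Old versus DC Dysbiotic (0.74).

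Hdc is also a transcript of mast cells, basophils and granulocyte precursors, so fixed marker lists of these cells were read beside it. Of 11 mast cell and basophil markers, 9 were well above background on all arrays, and each of the others on some arrays. The summed normalised intensity of the 11 genes was 23100, 24000 and 48100 on the A, B and C arrays of DC Young, 19800, 19800 and 47000 in DC Dysbiotic, 15400, 13800 and 62300 in DC Old, with 27100, 26200 and 41200 for DC Old-LP. This sum was thus lowest in DC Old on slide 1 and highest in DC Old on the C array, as was Hdc. It weighs the brightest markers most, which were the proteases Prss34 and Cpa3. Among the C arrays, both were highest in DC Old, as were Kit, Fcer1a, Gata2, Tpsb2 and Cma1. Ms4a2, Hpgds and Mcpt4 were instead lowest there, at 7.19, 1.80 and 1.83 against 7.81, 5.46 and 4.59 in DC Young. Mcpt8 also lay below DC Young (10.79 against 11.13). Prss34 read 13.39, 13.49 and 14.82 in DC Young and 12.65, 12.62 and 15.01 in DC Old, and Cpa3 read 12.32, 12.31 and 13.29 against 11.95, 11.77 and 14.08. Their log2 fold changes over 12 arrays were -0.47 and -0.04 (adjusted p = 1 for both), within a range over the 11 markers from -1.72 for Hpgds to 0.32 for Kit. On slide 1, 5 of the 11 markers were lower in DC Old compared to DC Young and 0 higher, and 6 were higher in DC Old-LP than in DC Old and 0 lower. These fits called 9.17 and 8.24% of all probes. In the comparisons with DC Dysbiotic, where Hdc was called as well, 1 marker was lower than in DC Young and 1 was higher in DC Old-LP. There, 6.14 and 4.81% of all probes were called. In the fit to all 12 arrays without a block none of the 11 passed. With the letter as a block 1 was higher in DC Old-LP than in DC Old (1.65% of all probes were called). With the slide as a term 1 was higher there (3.29%) and 1 was lower in DC Old compared to DC Young (2.7%).
Neutrophil and granulocyte precursor markers were read in the same way. The sum of their 10 genes was 22000, 20300 and 22600 in DC Young and 12700, 12300 and 17700 in DC Dysbiotic. In DC Old it was 8680, 8430 and 55700, and in DC Old-LP 24800, 25400 and 36700. The sum thus again set apart the C array of DC Old, where S100a9, at 15.37, weighs most. Ly6g, S100a9, Elane, Camp, Ngp, Ltf and Retnlg were highest there among the C arrays. S100a8 (10.92) and Mpo (11.23) were below DC Old-LP (11.01 and 12.23), and Cxcr2 was lowest (7.61). On slide 1, 6 of 10 were lower and 1 higher in DC Old compared to DC Young (9.17% of all probes were called). There, 7 were higher and 1 lower in DC Old-LP than in DC Old (8.24%). The exception, Camp, which encodes the antimicrobial peptide cathelicidin, was also the only one of the 10 to pass over all 12 arrays without a block, with log2 fold changes of 2.71 for DC Old (adjusted p = 0.0208) and 2.47 for DC Dysbiotic (adjusted p = 0.0498) versus DC Young. Camp read 7.23, 7.32 and 7.76 in DC Young, 9.78, 9.73 and 10.19 in DC Dysbiotic, 9.95, 9.96 and 10.52 in DC Old, with 7.54, 7.60 and 9.22 for DC Old-LP. With the letter as a block, 0 of the 10 were lower and 1 higher in DC Old compared to DC Young (2.18% of all probes were called). In DC Old-LP, 0 were then higher and 1 lower than in DC Old (1.65%). With the slide as a term, 1 was lower and 1 higher in each of these comparisons (2.7 and 3.29%). Over 12 arrays the 10 macrophage markers had median log2 fold changes of -0.01 for DC Old and 0.05 for DC Dysbiotic versus DC Young, and 0 passed without a block. On slide 1, Fcgr1 was lower and Marco higher in both comparisons (9.17 and 6.14% of all probes were called). There, 2 markers were higher and 1 lower in DC Old-LP than in DC Old (8.24%). With the letter as a block, 1 was lower in DC Old compared to DC Young (2.18%) and 1 higher in DC Old-LP than in DC Old (1.65%). The part of these cells in the values of Hdc and Hal was not tested.

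Hnmt, the enzyme that methylates histamine, was well above background on all 12 arrays by its brighter probe. It read 8.83, 8.67 and 10.22 in DC Young, 8.91, 8.76 and 10.26 in DC Dysbiotic, 8.85, 8.68 and 9.68 in DC Old, with 8.73, 8.80 and 9.65 for DC Old-LP. The groups overlapped, and the C array was highest in each. The difference of DC Old from DC Young was -0.17, with a 95% interval of -1.37 to 1.02 (adjusted p = 1), and on slide 1 it was 0.01 (SE 0.116, adjusted p = 0.971). Its second probe went the other way with the letter, lower on C, and read 7.33, 6.81 and 1.96 in DC Old, where the C array was not well above background. The probes of Hnmt thus disagree on the C arrays, and on slide 1 neither passed the threshold in any comparison.

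**Figure D3:**
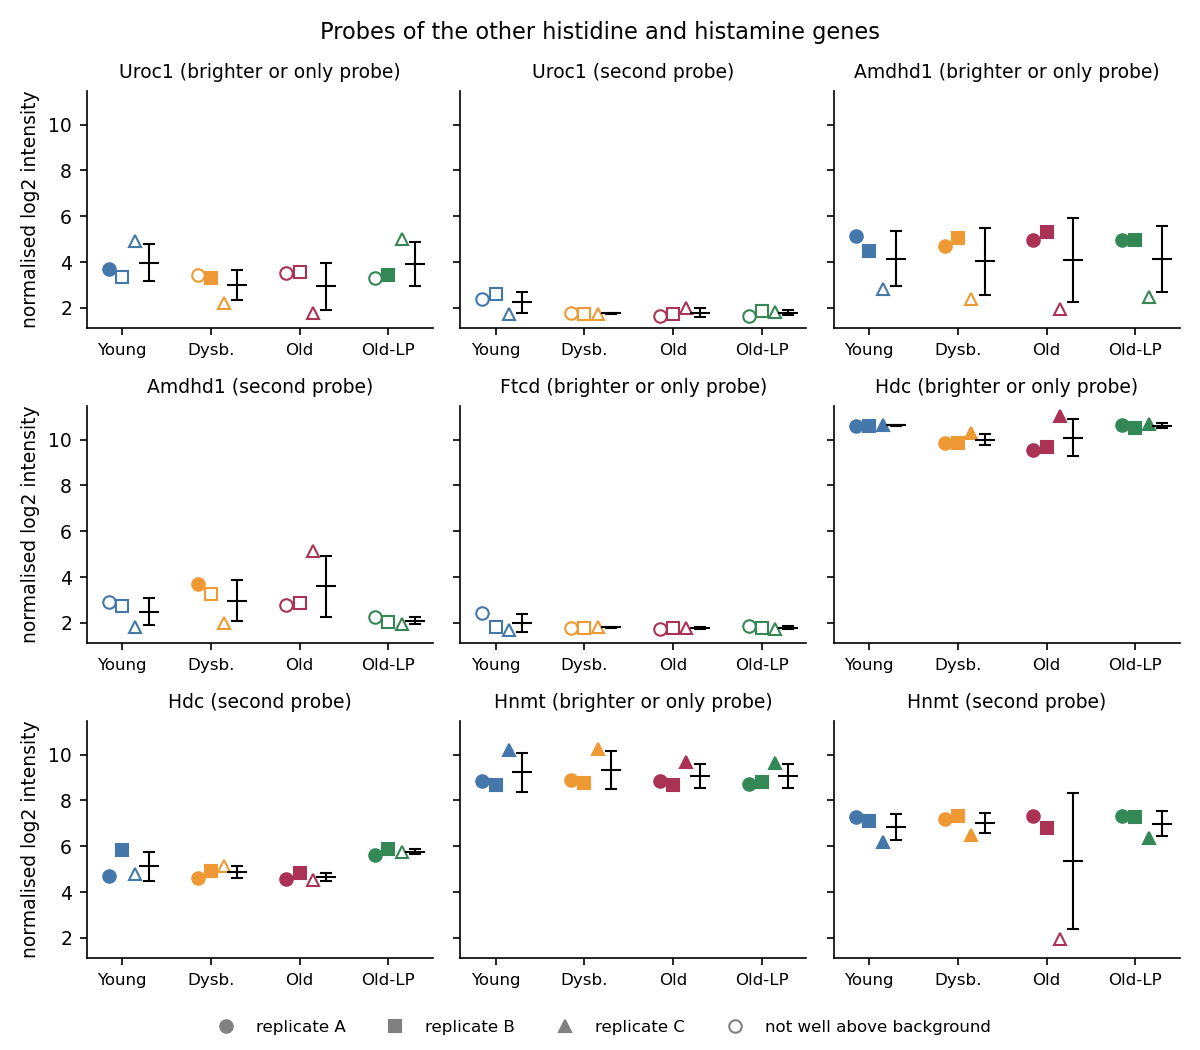
Normalised log2 intensity (y axis) of the 9 probes of Uroc1, Amdhd1, Ftcd, Hdc and Hnmt on each array by group (x axis), with open symbols for arrays where the probe was not well above background and black bars for the group mean ± SD (n = 3). Hdc and Hnmt lie well above background by their brighter probes, Ftcd and the second Uroc1 probe have open symbols throughout, and the C array of DC Old stands apart for Hdc (11.02) and for the second Hnmt probe (1.96).

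Of the 9 probes of the 5 other members, 0 were called in any of the 6 comparisons by limma. The share of all 56605 probes called was 0.62% for DC Old versus DC Young, 0.344% for DC Dysbiotic versus DC Young and 0.348% for DC Old-LP versus DC Old. It was 0% for DC Old-LP versus DC Young, 0.163% for DC Old-LP versus DC Dysbiotic and 0.00177% for DC Old versus DC Dysbiotic, so a count of 0 among 9 probes is near the background. At an unadjusted p of at most 0.05 with the same fold, 0, 0, 2, 0, 1 and 0 of the 9 probes passed in this order, against 6, 3.85, 5.79, 1.12, 3.3 and 1.53% of all probes. The 2 probes for DC Old-LP versus DC Old were the second probes of Hdc (1.11, limma adjusted p = 0.339) and of Amdhd1 (-1.51, limma adjusted p = 0.807), the latter not well above background on any array of either group. The probe for DC Old-LP versus DC Dysbiotic was again the second Hdc probe (0.87, adjusted p = 1). On slide 1 the second Amdhd1 probe was called in that comparison (-1.31, adjusted p = 0.0137), with 1 of the arrays well above background. The second Uroc1 probe was called on slide 1 for DC Old (-0.79, adjusted p = 0.0147) and for DC Dysbiotic (-0.73, adjusted p = 0.0276) versus DC Young, although it was not well above background on any array. Across the 12 arrays, after the mean of each letter was subtracted, the brighter Hdc probe had a Pearson r of -0.719 with Hal, Hnmt of -0.097 and Amdhd1 of -0.116. On the 8 arrays of slide 1 these were -0.935, 0.264 and 0.324. The arrays share group and slide, so these coefficients describe the patterns only.

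The genes around the pathway were read from 3 lists: histamine receptors, oxidation and transport (9 genes), other histidine and carnosine genes (11, with Hars1 not read by a named probe), and folate-dependent carbon metabolism (21). Of these 41 genes, 0 passed the limma threshold in any of the 6 comparisons. At an unadjusted p with the same fold, 7 passed for DC Old versus DC Young, 3 for DC Dysbiotic versus DC Young and 4 for DC Old-LP versus DC Old. Another 0 passed for DC Old-LP versus DC Young, 1 for DC Old-LP versus DC Dysbiotic and 2 for DC Old versus DC Dysbiotic. In the same order, 6, 3.85, 5.79, 1.12, 3.3 and 1.53% of all probes passed. The median log2 fold change between DC Old and DC Young was 0.10 for the histamine list, -0.14 for the histidine and carnosine list and 0.06 for the folate list, beside 0 over all 24232 genes. For DC Old-LP versus DC Old the medians were -0.39, 0.13 and 0.14, beside 0.01. The median of the histamine list had the opposite sign on slide 1, with -0.38 and 0.33 in these 2 comparisons.

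The brightest histamine list genes were Slc18a2, the vesicular monoamine transporter that loads histamine into granules, and Aoc1, diamine oxidase, which degrades extracellular histamine. Slc18a2 read 9.20, 9.14 and 8.29 in DC Young, 10.81, 10.73 and 9.32 in DC Dysbiotic, 10.87, 10.59 and 9.97 in DC Old, with 9.72, 9.66 and 9.21 for DC Old-LP. Every array of DC Dysbiotic and DC Old was above all arrays of DC Young. The log2 fold changes were 1.60 (SE 0.441, adjusted p = 0.262) and 1.41 (adjusted p = 0.603) for DC Old and DC Dysbiotic versus DC Young. With the replicate letter as a block these passed, with adjusted p of 0.00808 and 0.0229, in fits that called 2.18 and 0.984% of all probes. Within slide 1 they were 1.56 and 1.60 (adjusted p = 0.0013 and 0.00195), and DC Old-LP was lower than DC Old by -1.04 (adjusted p = 0.00604). On slide 1, as for Hal, both arrays of DC Old-LP lay above those of DC Young and below those of DC Dysbiotic and DC Old. Aoc1 read 9.51, 9.31 and 8.12 in DC Young and 8.10, 8.26 and 8.03 in DC Old, a log2 fold change of -0.85 (adjusted p = 0.768), and -1.23 within slide 1 (adjusted p = 0.00585).
Of the histamine receptors, Hrh1 was measured on 8 arrays, Hrh3 on 10, Hrh4 on 8 and Hrh2 on 5, and none passed over 12 arrays. Hrh1 was lower on slide 1 in DC Old (-0.99, adjusted p = 0.00441) and DC Dysbiotic (-0.96, adjusted p = 0.00769) than in DC Young. Slc15a4 and Slc15a3, endolysosomal transporters of histidine and peptides and the brightest of their list, differed by -0.14 and 0.21 between DC Old and DC Young (adjusted p = 1 for both).
In the folate list, Mthfs and Mthfd1 were brightest, with differences of -0.04 and 0.48 between DC Old and DC Young (adjusted p = 1 for both). Aldh1l2, mitochondrial 10-formyltetrahydrofolate dehydrogenase, is named after its values were seen. Aldh1l2 read 3.38, 3.79 and 1.62 in DC Young, 4.95, 4.83 and 5.24 in DC Dysbiotic, 4.87, 4.58 and 5.65 in DC Old, with 3.55, 3.16 and 1.71 for DC Old-LP, where no array was well above background. It was well above background on 5 of 12 arrays, with 1 of them in DC Young, so the size of its difference from DC Young was poorly measured: 2.10 for DC Old over 12 arrays (adjusted p = 0.315) and 1.14 on slide 1 (adjusted p = 0.0243), with 0.54 to 4.03 over the settings tried. The log2 fold change of DC Old-LP from DC Old was -2.23 over 12 arrays (adjusted p = 0.307), with -3.95 to -0.45 over the settings tried. With its DC Old-LP arrays raised to the lowest signal well above background, the 12-array difference was 1.78-fold. Only 2 of the DC Old arrays behind it were well above background. With the letter as a block, 2, 1 and 1 of the 41 genes passed for DC Old and DC Dysbiotic versus DC Young and for DC Old-LP relative to DC Old. The block called 2.18, 0.984 and 1.65% of all probes in these comparisons.
Within slide 1, 9, 8, 6 and 2 of the 41 genes passed for DC Old and DC Dysbiotic versus DC Young and for DC Old-LP versus DC Old and versus DC Dysbiotic, that is, in comparisons where 9.17, 6.14, 8.24 and 4.81% of all probes did. With the slide as a term, 3 passed in each of the first 3 of these, in fits that called 2.7, 2.04 and 3.29% of all probes.

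**Figure D4:**
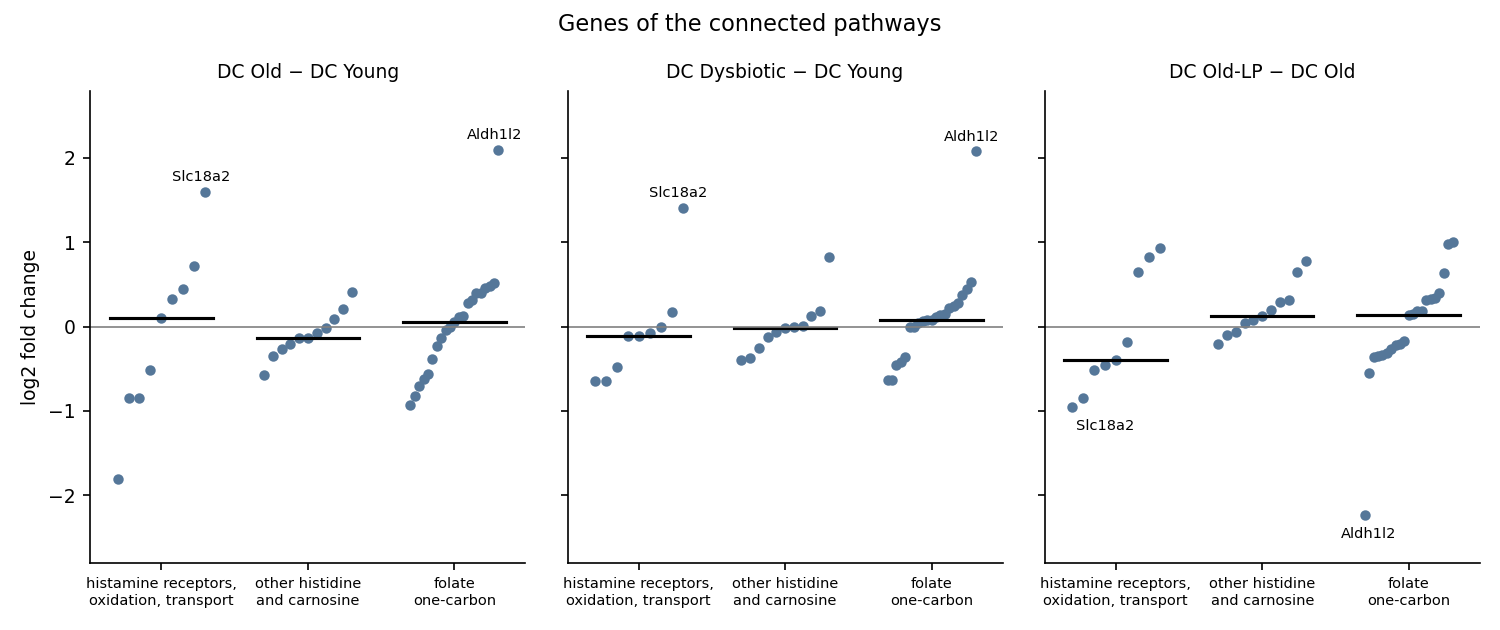
Log2 fold changes over 12 arrays (y axis) of the 41 genes of 3 connected pathways (x axis, genes of a list sorted by value, black bars for the list median) in 3 comparisons. Most genes lie near 0, with Slc18a2 (1.60 and 1.41) and Aldh1l2 (2.10 and 2.08) at the top in DC Old and DC Dysbiotic versus DC Young and at the bottom in DC Old-LP versus DC Old. Aldh1l2 was well above background on 5 of 12 arrays.

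None of the neighbours of Hal passed the threshold by its brightest probe in the 12-array fit without a block. Of the 3 genes on each side in the reference table (GRCm38.p6), Lta4h, Amdhd1, Ccdc38 and Snrpf were read by a named probe. Lta4h, leukotriene A4 hydrolase, was the nearest on the other side from Amdhd1 and had means of 11.03 ± 0.95 in DC Young, 10.73 ± 0.89 in DC Dysbiotic, 10.54 ± 0.88 in DC Old and 11.47 ± 0.11 for DC Old-LP (SD, n = 3). Its log2 fold change for DC Old versus DC Young was -0.49 (adjusted p = 1). Snrpf, a core spliceosome protein, differed by -0.47 (SE 1.53) and Ccdc38, well above background on 4 arrays, by 0.25 (adjusted p = 1 for both).

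The genes whose pattern was most like that of Hal were sought among 1473 genes that exceeded background in all arrays of 1 or more groups and had group means at least 1 apart. By Pearson r over the 12 arrays after the letter means were subtracted, the 5 most alike were Dcn (0.995), Atp6v0e2 (0.992), Aebp1 (0.991), BC023719 (0.991) and Lrmda (0.990). Dcn encodes decorin, a proteoglycan of the extracellular matrix, and had means of 4.32 in DC Young, 8.35 in DC Dysbiotic, 8.62 in DC Old and 5.90 for DC Old-LP. Atp6v0e2, a subunit of the vacuolar proton pump, had 3.91, 10.29, 10.47 and 6.89 in the same order. Aebp1, another matrix protein, had 5.2, 7.5, 7.82 and 6.08, BC023719 had 1.87, 7.38, 7.84 and 5.10, and Lrmda had 7.51, 11.12, 11.44 and 8.79. In each, as in Hal, DC Old-LP lay between DC Young and the other 2 groups. The 5 genes were selected for likeness, so their values are a description. The filter asked for brightness in 1 group only. BC023719 read 1.77, 2.13 and 1.70 in DC Young, near the values of Ftcd (1.71 to 2.44), which was well above background on no array. The size of its difference from DC Young is therefore poorly measured. Without subtraction of the letter means, 4 of the 5 remained among the 5 most alike, joined by Sparc, a matrix glycoprotein. On the 8 arrays of slide 1, 1 remained, Atp6v0e2 (0.999), and the other 4 had coefficients of 0.987 to 0.996.

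**Figure D5:**
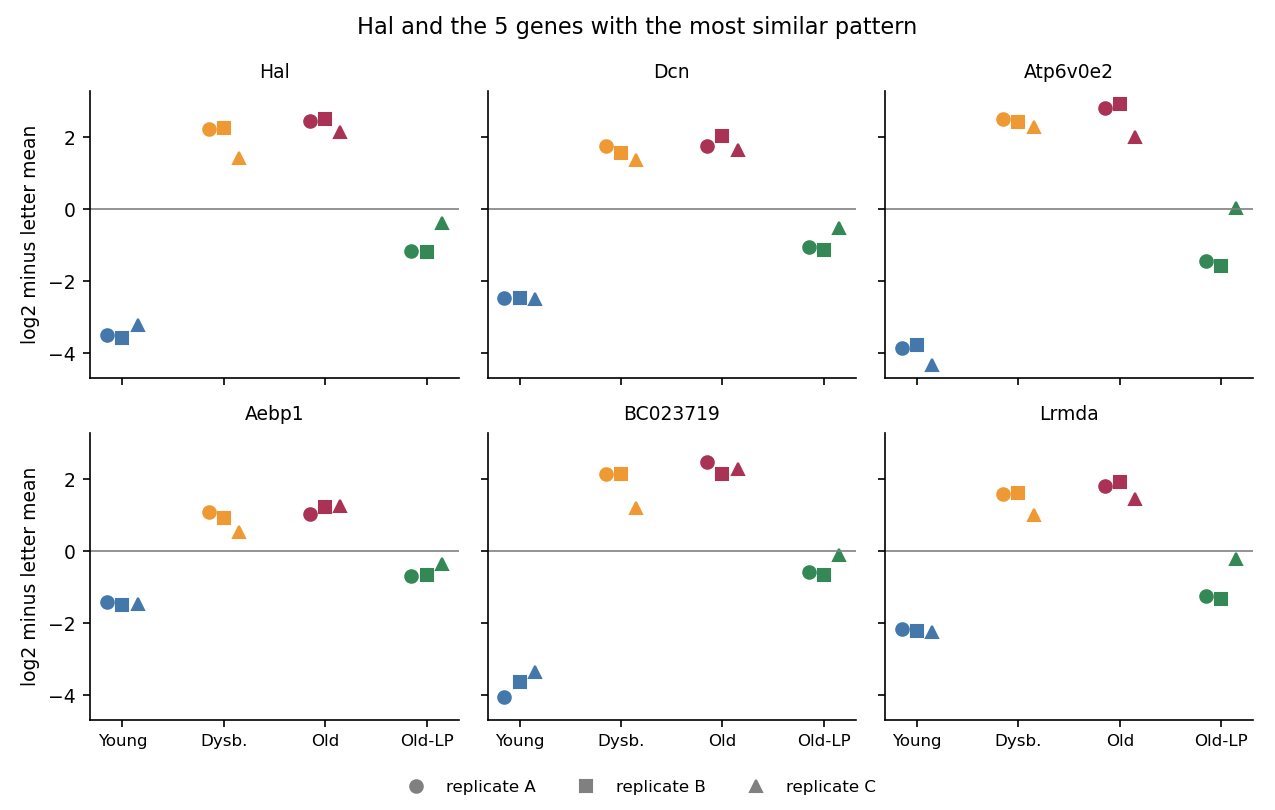
Normalised log2 intensity minus the mean of its replicate letter (y axis) on each array by group (x axis) for Hal and the 5 genes most like it, with circles, squares and triangles for replicates A, B and C. In all 6 panels DC Young is lowest, DC Dysbiotic and DC Old are highest, and DC Old-LP lies between them.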

How the data were processed

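Expression was measured on 12 arrays of RNA of LPS-stimulated DCs, 3 per group, with groups and replicate letters taken from the sample titles and slides from the scan names. For each spot, the authors deposited an intensity (background-subtracted by Feature Extraction, version 10.5 per the labels and 12.1.1.1 per the file headers), with flags for spots well above background, and a table of log2 values for 46302 probes that matched log2 of the quantile-normalised median signal. Here, control spots were left out, 1068 outlier readings of 59305 spots per array were set to missing, log2 intensity was quantile normalised, and replicate spots were averaged to give 56605 values per array, 1 for each probe. RefSeq accessions named 35405 of them (24232 symbols, from a GRCm38.p6 table). The header build is mm9 and that of the reference GRCm38.p6, so coordinates are given for reference sequences only. The brightest probe read a gene.

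The functions lmFit and eBayes (limma 3.58.1, R 4.3.3) were fitted to all arrays with 1 mean per group, with Benjamini-Hochberg adjustment over all probes and two-sided p. The steps were tested on simulated data. Named genes were the 6 members, list genes past the threshold, the 2 brightest of each list, 3 genes on each side of Hal and the 5 genes most like it. The members and lists were chosen with earlier results of these data known. Arrays with the same letter deviated together from their group means (r = 0.415 to 0.711 over 18 pairs from different groups). So did A with B (0.449 to 0.57) but not C with A or B (-0.659 to -0.466), and the letter was tried as a block. Deviations within a group cancel out, so the negative values follow in part from the shared deviation of the C arrays. The median r was 0.517 for A with B and 0.511 for A with A. The check thus sets C apart and does not tell A from B. The arrays are described as 3 independent sets of pooled animals. The A and B arrays share slide 1 while the C arrays lie on slides 2 and 3, so pool C and its slide cannot be told apart. Among the C arrays, young and old mice are on different slides, so age and slide cannot be told apart there. In the fit to all arrays without a block, p-values therefore measure the spread between pools and slides together. On slide 1 alone they measure only the spread between A and B. For Hdc in DC Old versus DC Young the SE was 0.354 in the first fit and 0.0984 in the second. The number of pools limits the precision. With 3 arrays a group no exact permutation test can go below p = 0.1, so limma alone was used. Normexp (offset 50) was run on the median signal, since the mean signal is not among the columns used. Other alternatives were a shift by the 75th percentile, the deposited log2 table, a filter on dim probes, the mean of all probes, outlier spots kept, 2 groups alone, an intensity trend, the slide as a term or a subset, unadjusted p, and each array left out. Some results counted in the lists are not reported by name here.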

Additional observations from a re-analysis of the deposited data

How the results depend on the processing

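In the values for which Hal was selected, the direction of every Hal difference was the same under all alternatives run. For several of these the agreement was fixed in advance, since they return the same difference of group means. They are the letter as a block, the dim-probe filter, 2 groups alone, the intensity trend and the mean of all probes. Leaving out an array of a group outside a comparison also leaves its Hal difference unchanged. The difference of DC Old from DC Young was 4.98 in the deposited log2 table, 4.86 after normexp and 5.34 on the C arrays, and that of DC Dysbiotic from DC Young was 4.57, 4.47 and 4.63 in the same settings and 5.78 on slide 1. DC Old-LP was 1.82 above DC Young in the deposited table and 1.74 after normexp. Its difference from DC Old was -2.52 on the C arrays, and that from DC Dysbiotic was -1.81 on the C arrays and -3.42 on slide 1. DC Old was 0.71 above DC Dysbiotic on the C arrays. Leaving out 1 array at a time gave 5.64 to 6.01 for DC Old and 5.25 to 5.62 for DC Dysbiotic versus DC Young, and -3.66 to -3.06 for DC Old-LP versus DC Old.

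Of the 5 other members, 1 (Hdc) was called on slide 1 in 4 comparisons and none under the other settings (by the brighter probe of each gene). The dim second probes of Uroc1 and Amdhd1 were also called on slide 1, in 2 comparisons and 1. On the C arrays Hdc lay opposite to slide 1 for DC Old versus DC Young (0.38), DC Old-LP versus DC Old (-0.32) and DC Old versus DC Dysbiotic (0.74). With the replicate block, 2, 1 and 1 of the 41 pathway genes passed for DC Old versus DC Young, DC Dysbiotic versus DC Young and DC Old-LP versus DC Old, and the block changed no call among the members. Of all probes, 2.18, 0.984 and 1.65% were called with the block there. The slide as a term gave 3, 3 and 3 in these comparisons, in fits that called 2.7, 2.04 and 3.29% of all probes. Slide 1 alone, added for these lists after the data were seen, gave 9, 8 and 6, and 2 for DC Old-LP versus DC Dysbiotic. Of all probes, 9.17, 6.14, 8.24 and 4.81% were called there in the same order. An unadjusted p gave 7, 3 and 4, and 1 and 2 for DC Old-LP and DC Old versus DC Dysbiotic. Of all probes, 6, 3.85, 5.79, 3.3 and 1.53% passed at that p and the same fold. The C arrays limit what can be read of dim members: Amdhd1 was not well above background on any of them, and Ftcd on no array. The cause of these shifts was not tested.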
